A study of Mus musculus with 6 samples.

Results

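The RNA of 38 genes of the autophagy machinery was followed in mouse bone marrow-derived eosinophils treated with vesicles from activated TH2 cells. The genes were taken by name from a list of core autophagy factors in 6 roles, and all 38 were found among the 16254 genes of the count table. All 38 also passed the filter on low counts, which kept 13498 genes for testing. Eosinophils from C57BL/6 bone marrow were grown with FLT3 ligand and stem cell factor and then with IL-5. The 3 sham-treated cultures received unconditioned medium that had gone through the same purification. The 3 EV-treated cultures received 5e9 extracellular vesicles (EVs) per ml from activated TH2 cells. Both groups were collected after 24 h, and no other allele or agent is named for either group. The samples are labelled as biological replicates, but nothing states whether they came from separate mice, so the p-values measure the spread between these cultures.

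Macroautophagy encloses cytoplasm in a double membrane that closes into an autophagosome and then fuses with a lysosome. The ULK kinase complex starts the process and a class III phosphatidylinositol 3-kinase (PI3K) complex marks the membrane. ATG9 vesicles and ATG2 supply lipid, ATG8 proteins are conjugated to the growing membrane, and cargo receptors tie selected material to ATG8. RNA levels were measured here, and neither lipidated ATG8 protein nor the rate of autophagic degradation was.

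Estimated counts per library ranged from 23697620 to 37874426. The labelled cell type was checked against 10 eosinophil markers, whose summed normalized count was 927700 to 1170000 in the sham libraries and 1325000 to 1482000 in the EV libraries, with 7 of the 10 higher after EV treatment and none lower. Genes listed as markers of other cell types also moved with treatment. Of 9 macrophage markers, 6 were lower (Csf1r, Mertk, Cd68, C1qa, C1qb and C1qc) and 1 (Adgre1) was higher. The 6 lower markers had log2 fold changes from -1.31 (Csf1r) to -2.85 (Mertk). The 9 summed to a normalized count of 43670 to 58530 in sham and 40550 to 45160 in EV. This sum hides the fall, because Adgre1 alone had 21100 to 21680 in sham and 32090 to 33530 in EV. Of 7 mast cell and basophil markers tested, 5 were higher and none lower, with sums of 4510 to 5943 in sham and 11570 to 13680 in EV over the 8 listed. Of 9 neutrophil markers 2 were higher and 5 lower, with sums of 22050 to 25860 in sham and 20200 to 24180 in EV. The 6 stromal cell markers summed to 11600 to 22840 in sham and to 561.4 to 6890 in EV, and 1 of the 4 tested (Col1a2) was lower. EV replicate 1 held the 6890 and stood apart from the other EV libraries. The 6 T cell markers summed to 26.7 to 130 in sham and 33.0 to 76.3 in EV, Cd2 and Cd5 were at 0 in every sham library, and the 1 T cell marker tested was not called. In bulk samples, a change in the number of cells of a type and a change in RNA per cell cannot be told apart. Nor can RNA of these marker genes made by the eosinophils themselves be told from that of other cells. The part of these cell types in the autophagy results was not tested.

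Promoter windows from RefSeq (GRCm38.p6, 250 bases before to 50 after the transcript start) were found for 32 of the 38 genes. The 3 stretches shown lie from 250 to 51 bases before the start of Gabarapl1, the gene of the set with the largest fold change, and of Optn and Tax1bp1, cargo receptor genes that moved in opposite directions. They are written 5′ to 3′ on the strand of the gene, at chr6:129532942-129533141 (plus strand), chr2:5064168-5064367 (minus strand) and chr6:52713479-52713678 (plus strand, the upstream of 2 starts listed for Tax1bp1). Capitals mark a match to TTCNNNGAA, the spaced palindrome that STAT factors bind.
Gabarapl1: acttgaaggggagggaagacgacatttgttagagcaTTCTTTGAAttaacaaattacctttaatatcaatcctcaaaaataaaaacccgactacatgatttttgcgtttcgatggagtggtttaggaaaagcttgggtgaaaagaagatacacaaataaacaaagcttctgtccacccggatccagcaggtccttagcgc
Optn: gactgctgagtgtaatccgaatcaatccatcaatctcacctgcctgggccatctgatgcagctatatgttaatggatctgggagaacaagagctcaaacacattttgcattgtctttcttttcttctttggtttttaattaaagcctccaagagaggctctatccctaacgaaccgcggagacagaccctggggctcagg
Tax1bp1: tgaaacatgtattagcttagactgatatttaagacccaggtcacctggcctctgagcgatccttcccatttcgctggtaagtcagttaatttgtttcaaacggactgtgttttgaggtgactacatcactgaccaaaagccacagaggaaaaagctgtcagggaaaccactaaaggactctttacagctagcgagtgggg

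The match in Gabarapl1 begins 214 bases before the start. Both strands of every window were searched for 3 motifs that do not overlap in sequence, and a match is a string of letters and not evidence of binding. TTCNNNGAA was found for 4 of the 32 genes (12.5%, Gabarap, Gabarapl1, Nbr1 and Wipi1), against 9.55% of all 27025 genes with a window and 8.41% of the 9999 that were also tested. CACGTG, the E-box core read by TFEB and its relatives, was found for 4 of 32 (12.5%, Atg14, Atg3, Atg5 and Atg7), against 8.09% of all genes and 11.2% of those tested. TGTTTAC, the forkhead core, was found for 0 of 32, against 4.05% and 3.12%. Of the 8 genes with a window that were called in the comparison of EV with sham, only Gabarapl1 held any of these 3 strings.

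Autophagy genes moved in both directions after EV treatment. At an adjusted p under 0.01, 6 of the 38 were higher after EV treatment (Rb1cc1, Ambra1, Atg9a, Vmp1, Atg16l1 and Tax1bp1) and 4 were lower (Gabarapl1, Atg4c, Sqstm1 and Optn), while 28 were not called. These shares, 15.8% higher and 10.5% lower, lie near those among all genes tested, of which 12.1% were called higher and 11.6% lower. The median SE was 0.0774 for the 38 genes and 0.137 for all genes, so a change of a given size was more easily called among the 38. The median log2 fold change of the 38 genes was 0.00, with 19 above 0 and 19 below, and that of all genes was -0.01. With library size alone as the scaling, the median of all genes shifted by -0.15 and the split became 2 higher and 8 lower of the 38, while 7.68% of all genes were called higher and 17.4% lower. Only Gabarapl1 fell by 1 or more on the log2 scale, against 6.35% of all genes that were called lower by that much, and none of the 38 rose by 1 or more, against 3.10%. The 3 EV libraries lay above all 3 sham libraries for 9 of the 38 genes (23.7%, 24.8% of all genes) and below them for 10 (26.3%, 24.7% of all genes).

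**Figure D1:**
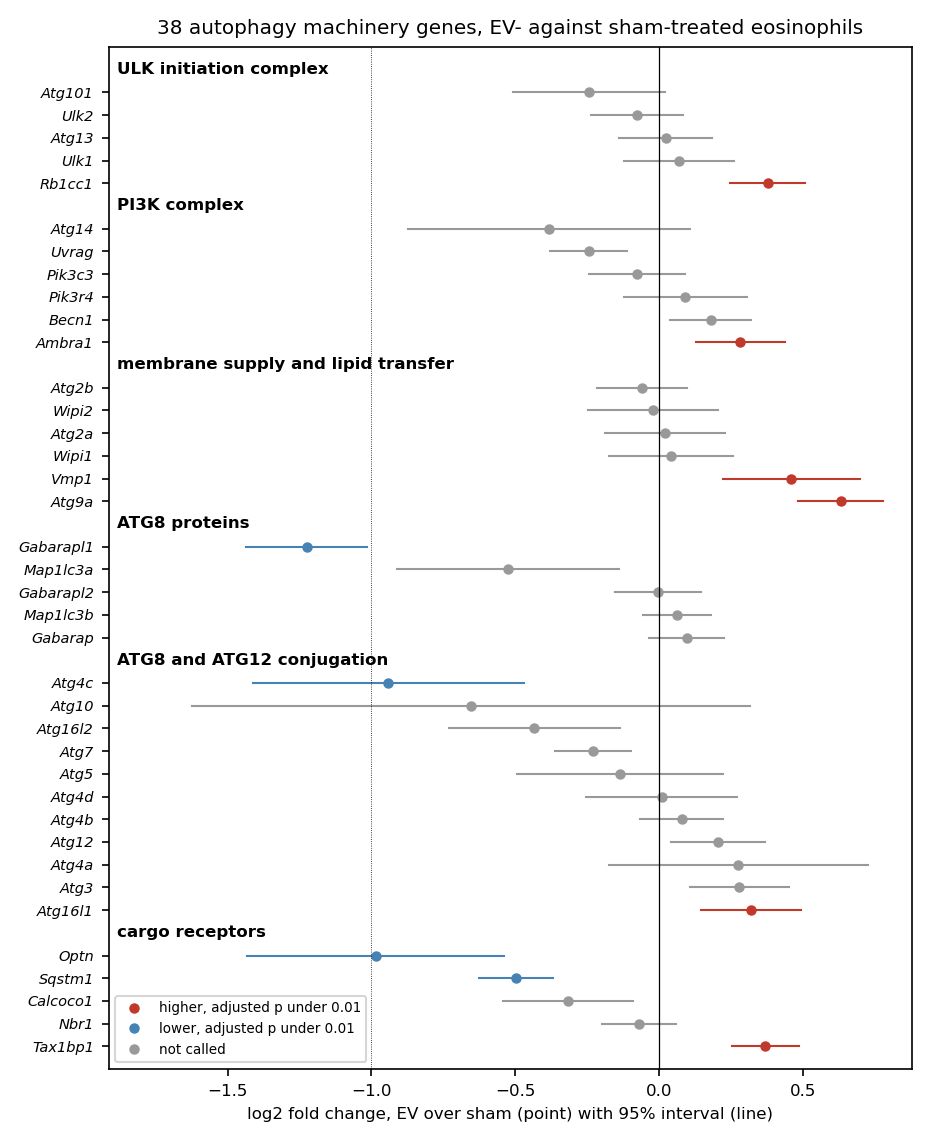
Log2 fold change of EV over sham for the 38 autophagy genes, grouped by role, with points for the edgeR estimate from 3 libraries a group and lines for its 95% interval. Red genes were called higher and blue genes lower at an adjusted p under 0.01, dotted lines mark a log2 fold change of -1, and under library size alone all values move down by about 0.15, which turns the sign of several grey genes near 0.

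In sham-treated cells the transcripts of the set covered most of the range of expression. Per kilobase of the principal transcript, 31 of the 38 genes lay above the 50th percentile of the 12249 tested genes with a length and 5 above the 90th percentile. Sqstm1 had the highest level, at 11110 ± 312 (SD, n = 3) normalized counts per kilobase, followed by Gabarap at 8085 ± 312, Map1lc3b at 3125 ± 59.0, Atg7 at 2847 ± 51.2 and Tax1bp1 at 1873 ± 32.3. Atg10 was lowest, at 39.4 ± 13.7 normalized counts per kilobase. After EV treatment the level of Sqstm1 was 7874 ± 434 and that of Gabarap 8641 ± 397 normalized counts per kilobase. The order of their means per kilobase was thus turned, although the EV libraries of these genes overlapped. This order rests on the transcript lengths used, as before division by length Sqstm1 stayed above Gabarap (means of 16040 and 11670 in EV).

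Of the 5 genes of the ULK initiation complex, 1 was called. Rb1cc1 encodes FIP200, the scaffold of the complex (chr1:6206197-6276648, plus strand, GENCODE M21). Its normalized counts were 4130, 3932 and 3889 in the sham libraries and 5234, 5247 and 5043 in the EV libraries. Every EV library lay above every sham library, and the log2 fold change was 0.38 ± 0.06 (SE, adjusted p = 0.000618). The call held without any one library and was missed only under library size alone, with an adjusted p of 0.0109. Gene models share sequence here, since 12.8% of the 31-base words of the Rb1cc1 exons also occur in other genes, and 9.22% of all its words occur in Gm13961.

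Ulk1, the kinase itself, was not called. It had 3101, 2572 and 3095 normalized counts in sham and 2888, 3072 and 3247 in EV, with a log2 fold change of 0.07 (95% interval -0.12 to 0.26, adjusted p = 0.573). Atg101, which holds Atg13 in the complex, had 683, 551.5 and 625.8 in sham and 501.5, 513.4 and 557 in EV, with a log2 fold change of -0.24 (95% interval -0.51 to 0.02, adjusted p = 0.143). The groups overlapped for both genes. Ulk2 and Atg13 had log2 fold changes of -0.08 and 0.02, also with overlap.

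Of the 6 genes of the PI3K complex, Ambra1 was called. It encodes a Beclin 1-binding regulator that also meets the ULK complex (chr2:91730134-91918849, plus strand). Its normalized counts were 2596, 2891 and 2950 in sham and 3431, 3312 and 3517 in EV, all EV libraries above all sham libraries. The log2 fold change was 0.28 ± 0.07 (SE, adjusted p = 0.00969). The call lay at the threshold and was lost when any 1 of the 6 libraries was left out, with adjusted p from 0.0109 (without sham replicate 3) to 0.0451 (without EV replicate 3), and under library size alone (0.162).

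Becn1 encodes Beclin 1, the core regulatory subunit, and Uvrag and Atg14 encode the subunits that give the complex its alternative forms. Becn1 had 3026, 3155 and 2838 normalized counts in sham and 3433, 3392 and 3391 in EV, a log2 fold change of 0.18 (95% interval 0.04 to 0.32, adjusted p = 0.0495). Uvrag had 4338, 4454 and 4117 in sham and 3547, 3619 and 3729 in EV, a log2 fold change of -0.24 (95% interval -0.38 to -0.11, adjusted p = 0.0101). The groups did not overlap for either gene, in opposite directions, and neither was called. Uvrag passed the threshold with DESeq2 (adjusted p = 0.00198), limma (0.00909) and library size alone (0.000549). Of the words of the Becn1 exons, 40.0% also occur in other genes, mostly in Cntd1, and of those of Uvrag 19.3%. Atg14 had 183.8, 218.1 and 292.8 in sham and 148.9, 198.9 and 183.6 in EV, a log2 fold change of -0.38 with an interval from -0.87 to 0.11. The catalytic subunit Pik3c3 and its partner Pik3r4 had log2 fold changes of -0.08 and 0.09, with overlapping groups.

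Membrane supply and lipid transfer held the gene with the largest rise. Atg9a encodes the transmembrane lipid scramblase carried on the vesicles that seed the autophagosome (chr1:75180860-75192196, minus strand). In sham it had 3110, 2773 and 2948 normalized counts, and in EV 4557, 4402 and 4725. The lowest EV library lay well above the highest sham library. Atg9a rose by 54.9%, a log2 fold change of 0.63 ± 0.07 (SE, adjusted p = 4.78e-05), and the call held in all 12 alternative fits. Its reads are uncertain in part, as 32.4% of its words also occur in other genes, with 30.5% of its words found in Gm29253, and its exons also overlap those of Ankzf1 on the opposite strand. For Ankzf1 itself the log2 fold change was -0.04 (adjusted p = 0.828).

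Vmp1 encodes a scramblase of the endoplasmic reticulum that acts where autophagosomes form (chr11:86583865-86683836, minus strand). Its normalized counts were 2688, 3088 and 3247 in sham and 4733, 4078 and 3597 in EV. The EV libraries all lay higher but differed from each other by more than the sham libraries did. The log2 fold change was 0.46 ± 0.11 (SE, adjusted p = 0.00699). Leaving out any sham library (adjusted p = 0.0202, 0.0193 and 0.0123 without replicates 1, 2 and 3), EV replicate 1 (0.0243) or EV replicate 2 (0.0228) lost the call, as did library size alone (0.0489). The microRNA gene Mir21a lies within an exon of Vmp1. The lipid transfer genes Atg2a and Atg2b and the PI3P-binding Wipi1 and Wipi2 had log2 fold changes from -0.06 to 0.04, and all 4 overlapped between groups.

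Of the 5 ATG8 genes, 1 was called, and it had the largest change of the whole set. Gabarapl1 encodes an ATG8 protein of the GABARAP branch (chr6:129533160-129542346, plus strand). The sham libraries had 1552, 1750 and 1533 normalized counts and the EV libraries 634.4, 749.1 and 683.2. The highest EV library, at 749.1, lay below the lowest sham library, at 1533. Gabarapl1 fell by 57.2%, a log2 fold change of -1.22 ± 0.09 (SE, adjusted p = 6.24e-06). It was called lower in all 12 alternative fits, with log2 fold changes from -1.37 to -1.16. Of its words, 25.2% also occur in 1700101I11Rik, a gene on the opposite strand that has no row in the count table, and whether the counting used strand is not given in the sources used here.

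None of the other ATG8 genes was called. Map1lc3b, which encodes the LC3B commonly used as an autophagosome marker, had 8073, 7777 and 7891 normalized counts in sham and 8060, 8245 and 8501 in EV, a log2 fold change of 0.06 (95% interval -0.06 to 0.18, adjusted p = 0.399). Gabarap and Gabarapl2 had log2 fold changes of 0.10 (95% interval -0.03 to 0.23) and 0.00 (95% interval -0.15 to 0.15). The groups overlapped for all 3, and none of these intervals reaches the change of Gabarapl1. Map1lc3a, which encodes LC3A, had 320.8, 281.9 and 314.7 in sham and 183.8, 201.4 and 252.4 in EV. Its libraries did not overlap, with a log2 fold change of -0.52 (95% interval -0.91 to -0.14), but the adjusted p was 0.0383.

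Per kilobase, the levels of the ATG8 genes in sham cells ran from Gabarap through Map1lc3b, Gabarapl1 and Gabarapl2 down to Map1lc3a, with no overlap between neighbours. In EV-treated cells Gabarapl1, at 537.9, 635.1 and 579.2 normalized counts per kilobase, lay below Gabarapl2, at 859.9, 890.3 and 871.8. The share of Gabarapl1 in the summed level per kilobase of the 5 genes was 9.33%, 11.0% and 9.56% in the sham libraries and 4.16%, 4.61% and 4.15% in the EV libraries. That of Gabarap was 59.7%, 57.9% and 59.0% in sham and 63.3%, 64.0% and 63.9% in EV. A share within the family can rise because another member falls, and the count of Gabarap itself was not called.

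**Figure D2:**
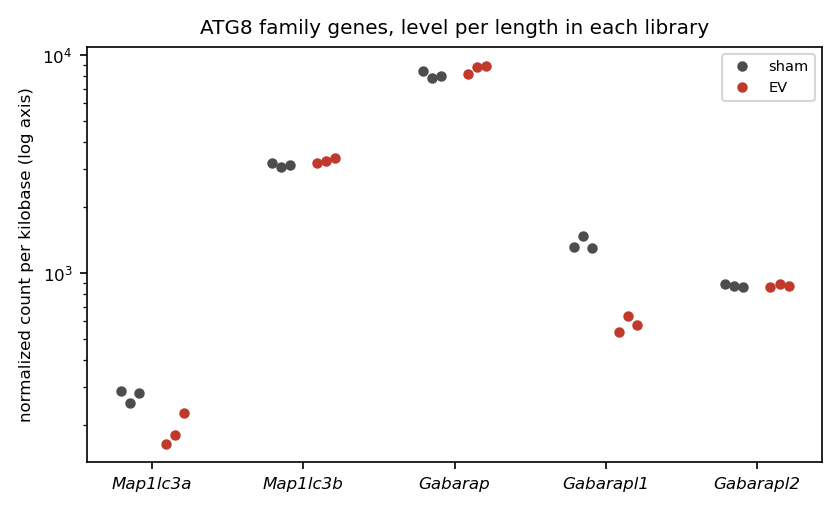
Normalized counts per kilobase of principal transcript, on a log axis, for the 5 ATG8 family genes in each of 3 sham (grey) and 3 EV (red) libraries. Gabarapl1 dropped from above Gabarapl2 to below it, from 1300 to 1484 in sham to 537.9 to 635.1 in EV, while the groups overlapped for Map1lc3b, Gabarap and Gabarapl2.

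The 11 genes of the ATG8 and ATG12 conjugation system were called in both directions, 1 higher and 1 lower. Atg16l1 encodes the protein that places the ATG12-ATG5 conjugate on the membrane (chr1:87755870-87792428, plus strand). Its normalized counts were 1869, 1911 and 1651 in sham and 2343, 2127 and 2307 in EV. All EV libraries were higher, with a log2 fold change of 0.32 ± 0.08 (SE, adjusted p = 0.00963). The call was lost without sham replicate 2 (adjusted p = 0.0105), sham replicate 3 (0.0258), EV replicate 1 (0.0435), EV replicate 2 (0.0172) or EV replicate 3 (0.0433), and under library size alone (0.116). Its paralogue Atg16l2 had 702.8, 538 and 577.2 in sham and 432.6, 432.8 and 482.2 in EV, all EV libraries lower, with a log2 fold change of -0.43 (95% interval -0.73 to -0.14, adjusted p = 0.0283).

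Atg4c encodes one of the cysteine proteases that prepare and release ATG8 (chr4:99193934-99259787, plus strand). In sham it had 247.8, 349.3 and 274.6 normalized counts, and in EV 125.9, 184.3 and 142.7. The groups did not overlap, and Atg4c fell by 47.9%, a log2 fold change of -0.94 ± 0.21 (SE, adjusted p = 0.00614). The call was lost without sham replicate 2 (adjusted p = 0.0194), sham replicate 3 (0.0158), EV replicate 1 (0.0275) or EV replicate 3 (0.0337). The other proteases Atg4a, Atg4b and Atg4d had log2 fold changes of 0.28, 0.08 and 0.01, with overlapping groups. For Atg4a 60.8% of the words also occur elsewhere, mainly in Atg4a-ps.

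Atg7 encodes the E1-like enzyme that serves both conjugation systems and had the highest level per kilobase of this group. Its normalized counts were 7100, 7357 and 7264 in sham and 6120, 5870 and 6525 in EV. All EV libraries were lower, by a log2 fold change of -0.23 (95% interval -0.36 to -0.10), and the adjusted p of 0.0128 missed the threshold. It passed with DESeq2 (adjusted p = 0.00177), limma (0.00911) and library size alone (0.000498). Atg3, the E2-like enzyme of ATG8, had a log2 fold change of 0.28 (95% interval 0.11 to 0.45, adjusted p = 0.0175) with all EV libraries higher. Atg10, the E2-like enzyme of ATG12, was measured at only 37.7 to 78.4 normalized counts in sham and 29.0 to 45.4 in EV, so that its log2 fold change of -0.65 had an interval from -1.63 to 0.32. Atg5 had 860.5, 584.6 and 955 in sham and 764.3, 721.7 and 698.9 in EV, with a log2 fold change of -0.14 (95% interval -0.49 to 0.22, adjusted p = 0.552) and overlapping groups. For its conjugation partner Atg12 the log2 fold change was 0.21 (95% interval 0.04 to 0.37, adjusted p = 0.0511), with all EV libraries higher.

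Of the 5 cargo receptors, 1 was called higher and 2 lower, where 12.1% and 11.6% of all genes were. None of the 5 overlapped between EV and sham, 1 lying higher and 4 lower, where 24.8% and 24.7% of all genes did, and for Nbr1 the groups were only just apart. Sqstm1 encodes p62, which binds ubiquitinated cargo and is itself degraded by autophagy (chr11:50199366-50210827, minus strand). The sham libraries had 21910, 22940 and 23070 normalized counts and the EV libraries 15360, 15720 and 17040. Sqstm1 fell by 29.1%, a log2 fold change of -0.50 ± 0.06 (SE, adjusted p = 9.01e-05), and was called in all 12 alternative fits. Of its words 16.4% also occur in other genes, nearly all in Mrnip on the opposite strand. Mrnip had a mean of 32.9 normalized counts in sham and 68.7 in EV, far below Sqstm1, and was not called (adjusted p = 0.15).

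Optn encodes optineurin, a ubiquitin-binding receptor for bacteria and damaged mitochondria (chr2:5020642-5064051, minus strand). Its normalized counts were 267.6, 433.8 and 314.7 in sham and 165.8, 172.3 and 174.1 in EV. The EV libraries were close together and the sham libraries spread more widely above them. Optn fell by 49.5%, a log2 fold change of -0.99 ± 0.20 (SE, adjusted p = 0.00345). The call was lost when any EV library was left out, with adjusted p of 0.0148, 0.0172 and 0.0183 without replicates 1, 2 and 3, although the log2 fold change stayed between -0.99 and -0.96 in those fits.

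Tax1bp1 encodes a ubiquitin-binding receptor related to NDP52 (chr6:52713729-52766780, plus strand). In sham it had 6032, 6223 and 6207 normalized counts, and in EV 7936, 7922 and 7990. The spread within each group was small beside the distance between the groups. Tax1bp1 rose by 29.2%, a log2 fold change of 0.37 ± 0.05 (SE, adjusted p = 0.000354), and the call held in all 12 alternative fits. Calcoco1, a receptor for endoplasmic reticulum and Golgi cargo, had 1956, 2195 and 1714 in sham and 1425, 1679 and 1607 in EV, a log2 fold change of -0.32 (95% interval -0.54 to -0.09, adjusted p = 0.0335). Nbr1, which binds cargo together with p62, had a log2 fold change of -0.07 (95% interval -0.20 to 0.06, adjusted p = 0.383), although its highest EV library, at 4200, lay just below its lowest sham library, at 4216.

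**Figure D3:**
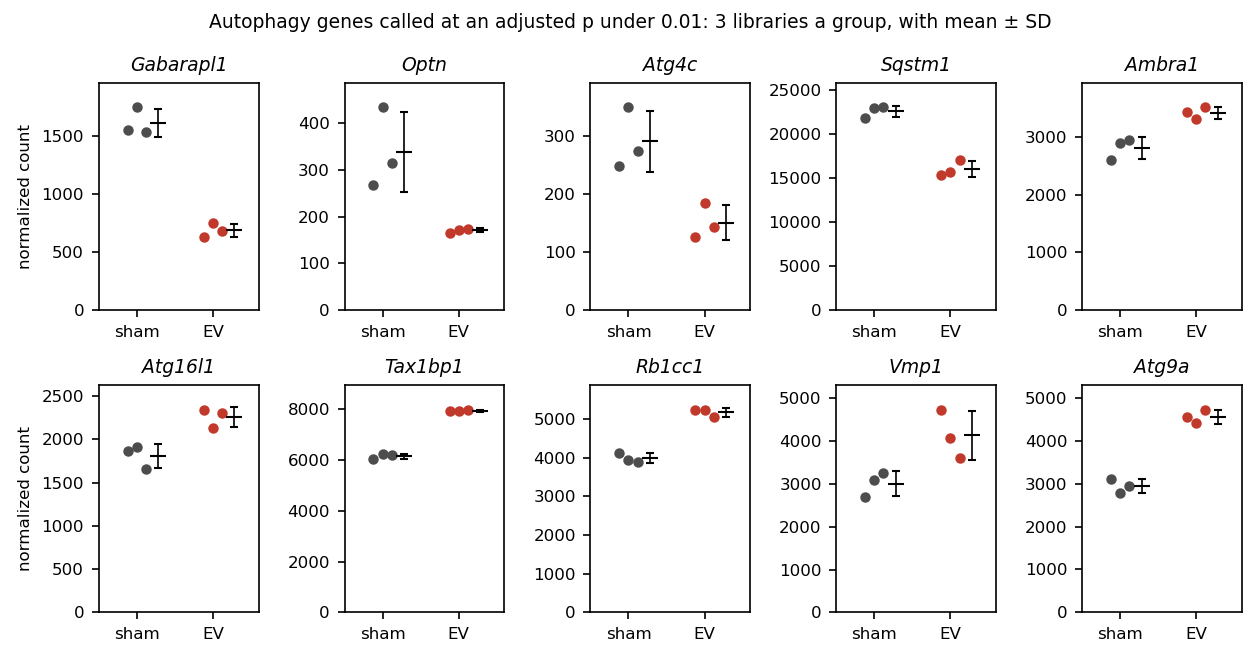
Normalized counts of the 10 called autophagy genes in 3 sham (grey) and 3 EV (red) libraries, ordered from the largest fall to the largest rise, with the mean and SD beside the points and every axis starting at 0. The groups did not overlap for any of the 10 genes, and the sham libraries of Optn, from 267.6 to 433.8, spread more widely than its EV libraries, from 165.8 to 174.1.

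Beside the core machinery, 71 further genes of the pathway were in the table, of which 68 passed the filter and were tested. Of these, 9 were higher after EV treatment (13.2%) and 18 lower (26.5%), against 12.1% and 11.6% of all genes. The list was chosen with earlier results of these data known, so these shares are not an independent test. The median SE was 0.0865 for these genes and 0.137 for all genes, so a change of a given size was more easily called among them. Their median log2 fold change was -0.14, and 7 (10.3%) were called lower by 1 or more on the log2 scale, against 6.35% of all genes. Under library size alone 2 were higher and 26 lower, against 7.68% and 17.4% of all genes. The lists were 13 further core factors (1 higher, 5 lower), 15 selective autophagy and mitophagy receptors (3 higher, 2 lower), 12 factors of autophagosome-lysosome fusion (1 higher, 4 lower) and 28 nutrient-sensing and transcriptional regulators (4 higher, 7 lower).

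Among the further core factors, the largest change was in Wdfy3, which encodes ALFY, a scaffold that brings protein aggregates to autophagosomes. It had 2578, 3433 and 3474 normalized counts in sham and 709.3, 717.4 and 700.7 in EV, a log2 fold change of -2.16 ± 0.11 (SE, adjusted p = 6.15e-07). The EV libraries were almost level with each other, far below the lowest sham library. Rubcnl, a promoter of autophagosome maturation, went from a mean of 903 ± 160 to 353 ± 14.0 (SD, n = 3), which is -1.36 on the log2 scale (adjusted p = 3.79e-05). Sh3glb1, which encodes the UVRAG-binding Bif-1, went from 3289 ± 501 to 1720 ± 89.9, a log2 difference of -0.93 (adjusted p = 8.70e-05). All 3 stayed called in the 12 alternative fits.

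The selective receptors moved both ways. Retreg1, a receptor for the endoplasmic reticulum, had a mean of 1280 ± 121 normalized counts in sham and 581 ± 48.4 in EV, a log2 difference of -1.14 (adjusted p = 1.87e-05). Rtn3 of the same list, named after its values were seen, rose by 0.41 on the log2 scale (adjusted p = 0.000205). The call of Rtn3 held in all 12 alternative fits. Bnip3, a mitochondrial receptor, had 1130 ± 41.0 in sham and 706 ± 71.8 in EV, a log2 difference of -0.68 (adjusted p = 0.000398). Bcl2l13, also a mitochondrial receptor, had 1264 ± 147 in sham and 1681 ± 15.5 in EV, a log2 difference of 0.41 (adjusted p = 0.00529). The call of Bcl2l13 was lost without sham replicate 2 (adjusted p = 0.0148), sham replicate 3 (0.0214) or EV replicates 1, 2 and 3 (0.0186, 0.0239 and 0.0267), and under library size alone (0.0376).

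Of the fusion factors, Plekhm1, an adaptor that joins RAB7 to the HOPS tethering complex, fell by 0.53 on the log2 scale (adjusted p = 0.00031), from a mean of 5099 ± 245 to 3522 ± 285 normalized counts. Vps18, a HOPS subunit, fell by 0.51 (adjusted p = 0.000913), from 3079 ± 281 to 2166 ± 140. Snap29, a SNARE of the fusion step, rose by 0.44 (adjusted p = 0.00523), from 896 ± 98.5 to 1213 ± 11.7, and its call was lost without EV replicates 1, 2 and 3 (0.0215, 0.0255 and 0.0234) and under library size alone (0.0400).

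Among the regulators, Rragd had the largest change of the 38 core and 68 further genes tested. It encodes RagD, a GTPase that recruits mTORC1 and its substrates to the lysosome. It had 208.1, 277 and 294 normalized counts in sham and 29.97, 23.14 and 33.94 in EV, a log2 fold change of -3.16 ± 0.26 (SE, adjusted p = 9.61e-06). Deptor, an mTOR-binding inhibitor, went from 151 ± 24.4 to 40.3 ± 7.98 (log2 fold change -1.90, adjusted p = 0.000656). Fnip2, a folliculin partner, went from 8469 ± 1700 to 2725 ± 259 (log2 fold change -1.63, adjusted p = 1.10e-05).

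A few further regulators are named after their values were seen. The sestrin gene Sesn2, a stress-induced brake on mTORC1, rose by 0.91 on the log2 scale (adjusted p = 1.24e-05). Its mean went from 1811 ± 162 to 3412 ± 154 normalized counts. Of the other sestrin genes, Sesn3 rose by 0.32 (adjusted p = 0.00893), while Sesn1, at -0.34, was not called (adjusted p = 0.0237). Ddit4 of the same list moved in the opposite direction to Sesn2, by -0.50 (adjusted p = 0.000865). The call of Ddit4 held in all 12 alternative fits and that of Sesn3 in 5. Of the MiT/TFE factors that drive lysosome and autophagy genes, Mitf fell by 1.24 (adjusted p = 5.18e-05) and Tfe3 by 0.67 (adjusted p = 0.000828). Tfeb, the other listed factor of this family, had 2335, 2166 and 2068 in sham and 2248, 2319 and 2716 in EV. That is 0.15 on the log2 scale (adjusted p = 0.217), with overlapping groups. The log2 fold change of Mtor was 0.03 (adjusted p = 0.755).

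**Figure D4:**
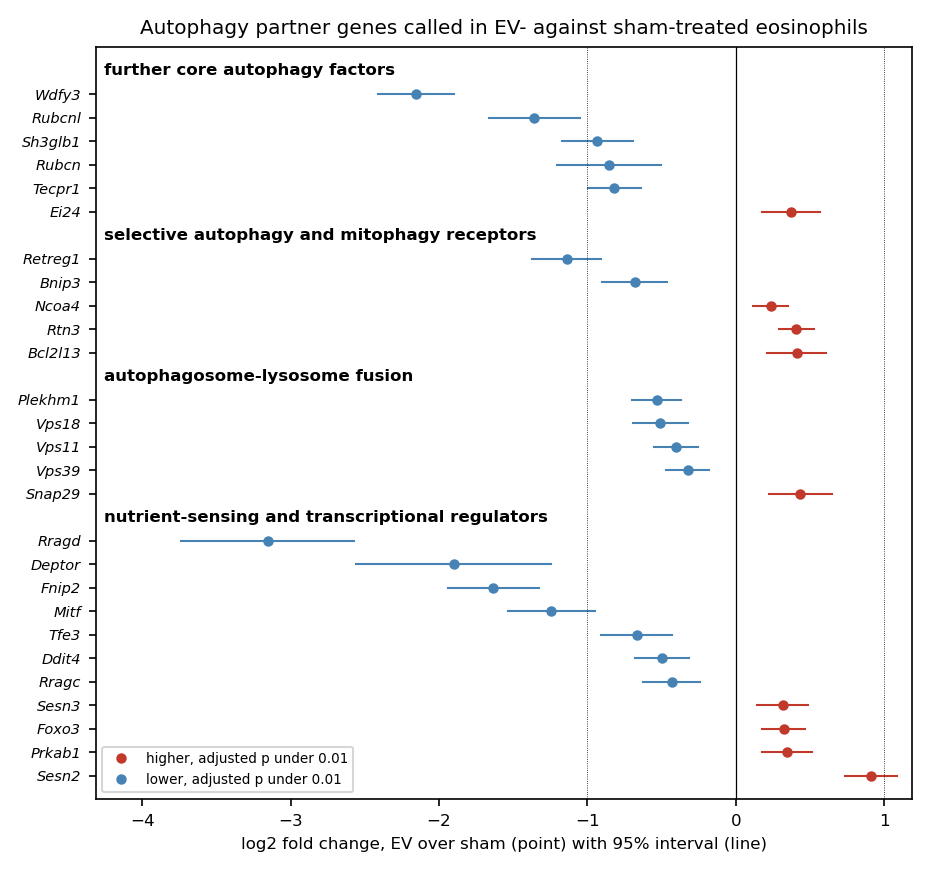
Log2 fold change of EV over sham for the 27 called genes among the 68 further pathway genes tested, by list, with points for the edgeR estimate from 3 libraries a group and lines for its 95% interval. The 18 genes in blue were lower, down to -3.16 for Rragd, and the 9 in red were higher, up to 0.91 for Sesn2, with dotted lines at log2 fold changes of -1 and 1.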

How the data were processed

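Bulk RNA sequencing of 3 sham-treated and 3 EV-treated mouse eosinophil cultures (poly(A)-selected RNA, 24 h) was used. Per the labels and the study's methods, the authors used FastQC for read quality, Cutadapt for trimming, Salmon for quantification and DESeq2 for their own comparison, and mm10 is the build named in the submitters' processing notes. Tool versions, annotation and strandedness are not given in the sources used here. The table that the authors deposited holds estimated counts of 16254 genes, some of them fractional, and normalized counts, a signal that equals the rounded estimated count plus 1 over a size factor per sample within a relative tolerance of 1e-05, apart from 1 value of sham replicate 2, 4 of EV replicate 1 and 1 of EV replicate 2. Their deposited table of the comparison holds fold changes and p-values and was not used.

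Estimated counts were rounded and fitted in edgeR 4.0.16 (R 4.3.3) with TMM scaling, filterByExpr and the quasi-likelihood test over 13498 genes, with Benjamini-Hochberg adjustment over all of them. Genes were called at an adjusted p under 0.01. Normalized counts in the text are TMM-scaled counts. A standard error is the absolute log2 fold change over the square root of F, and 95% intervals are unadjusted and use the fit's degrees of freedom. Alternatives used DESeq2 1.42.0, limma 3.58.1 (pseudocount 1), other scalings, no filter, other thresholds, a replicate block and each library left out. An exact permutation test of 3 against 3 cannot go below a two-sided p of 0.1 and was not used. Libraries of a group differed by more than sampling noise (chi-square of 8.37 to 31.8 per gene), so each counted as 1 sample. These values are means over genes and do not give the spread of any single gene. Some well-counted genes varied little within a group, such as Gabarapl2 in sham (mean 1468, SD 17.2).

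The member genes, further pathway genes and markers were chosen with earlier results of these data known. Named genes were every called member, the 2 members of each role with the largest absolute fold change, Ulk1, Becn1, Atg5, Atg7, Map1lc3b and Sqstm1, and the 3 most changed called genes of each further list. Other members are given to account for the whole set. Calcoco2 and Vamp7 of the further genes and the marker Cd3e had no row. A further marker of the macrophage list is not reported here. Coordinates and transcript lengths come from GENCODE M21 (GRCm38), with the APPRIS principal transcript for the length. Shared sequence is the share of the 31-base words of a gene's exons that occur in the exons of other genes, on either strand.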

Additional observations from a re-analysis of the deposited data

How the results depend on the processing

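Library size alone gave 2 autophagy genes higher and 8 lower and 2 further pathway genes higher. An adjusted p under 0.05 gave 9 autophagy genes lower, and asking also for a log2 fold change of at least 1 left 0 higher and 1 lower, with 0 higher and 7 lower among the further genes. Leaving out each library in turn gave 3 to 4 autophagy genes higher and 2 to 4 lower, and 2 to 8 further genes higher. DESeq2 size factors, no filter, DESeq2 and limma kept each of these counts within 1.5 times. No called autophagy gene changed direction under any of the 12 alternatives. Without EV replicate 1, the EV library with most stromal RNA, 3 autophagy genes were higher and 2 lower.

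A replicate block gave 6 autophagy genes higher and 4 lower, with the same call for all 38, and 9 further genes higher and 20 lower. Over all genes the block called 1794 higher and 1781 lower, against 1632 and 1572 in the main fit. Samples with the same number correlated at 0.12, 0.08 and 0.04 in their deviations from the group means. Other pairs ran from -0.12 to 0.05. Each sham library correlated best with the EV library of its number, but EV replicate 3 correlated best with sham replicate 2 (0.05). These values are weak and no label states a pairing, so whether the samples are paired was left undecided and the unblocked fit was kept. With 3 libraries a group, genes with low counts, such as Atg10 and Atg14, were measured too loosely to tell a moderate change from none.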
